A study of Mus musculus with 12 samples.

Results

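The genes described here are 36 genes of the cell division cycle and of DNA replication, read in CD4+ T cells of mouse spleen on Affymetrix expression arrays. They were taken from a list of names that was drawn up with earlier results of these data known, and the rule for membership uses no measured value. Each gene was represented by its probe set (a group of short probes for a transcript) of the highest mean log2 intensity over all 12 arrays, among the probe sets whose platform annotation names that gene alone. Of the 36 genes, 35 had such a probe set, out of 18193 genes represented in the same way. The exception was Ccnb1, a mitotic cyclin, which is not described further. The 4 groups of 3 arrays each were Treg from NOD mice, Tconv from NOD mice, Treg from B6.H2g7 mice and Tconv from B6.H2g7 mice. NOD is a strain that develops autoimmune diabetes. B6.H2g7 mice are B6 mice that carry the H2g7 haplotype of the major histocompatibility complex, the haplotype of NOD. Treg here are CD4+CD25+ regulatory T cells, sorted for high CD25, and Tconv are CD4+CD25- conventional T cells. All groups were sorted in 2 passes to be without CD8a, CD11b, CD69 and B220, so cells with the early activation marker CD69 were removed from Treg and Tconv alike. All mice were 6 weeks old, and each array held the pooled RNA of 3 mice. The 3 arrays of a group are independent pools, as the series text states.

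A resting T cell sits in G0 or G1. When it is stimulated, D cyclins join the kinases Cdk4 and Cdk6 and begin to inactivate the retinoblastoma protein, which frees E2F transcription factors. These switch on cyclin E, the MCM helicase, the sliding clamp Pcna and the enzymes that make deoxynucleotides, and the cell enters S phase. The mitotic cyclins with Cdk1, the Aurora and Polo kinases and the spindle checkpoint genes follow in G2 and mitosis, and their transcripts are low in cells that do not divide. Treg are known for a larger dividing fraction in the living animal than Tconv, while they respond poorly to stimulation of the T cell receptor in culture.

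Promoter sequence is shown for 5 of the genes: the 3 that were higher in Treg than in Tconv, and 2 mitotic genes that were not. The 2 mitotic genes, Top2a and Cdk1, were picked without a set rule and do not stand for the other mitotic genes. Each stretch holds the 250 bases before the first listed transcription start of the gene, from RefSeq on mouse build GRCm38.p6, written 5′ to 3′ on the strand of the gene. Capitals mark a CCAAT box (CCAAT), a cell cycle homology region (CHR motif, TTTGAA) or an E2F motif (TTTCCCGC, TTTCGCGC, TTTGCCGC or TTTGGCGC), each searched on both strands. The Cdk6 stretch lies at chr5:3343643-3343892 on the plus strand, E2f2 at chr4:136172024-136172273 on the plus strand and Tk1 at chr11:117826015-117826264 on the minus strand. The Top2a stretch lies at chr11:99024190-99024439 and the Cdk1 stretch at chr10:69352913-69353162, both on the minus strand.
Cdk6: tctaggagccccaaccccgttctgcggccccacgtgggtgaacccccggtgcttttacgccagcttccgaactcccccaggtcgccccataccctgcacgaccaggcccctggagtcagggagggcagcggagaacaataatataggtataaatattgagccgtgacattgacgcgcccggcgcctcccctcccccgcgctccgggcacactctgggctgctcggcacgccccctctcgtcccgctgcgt
E2f2: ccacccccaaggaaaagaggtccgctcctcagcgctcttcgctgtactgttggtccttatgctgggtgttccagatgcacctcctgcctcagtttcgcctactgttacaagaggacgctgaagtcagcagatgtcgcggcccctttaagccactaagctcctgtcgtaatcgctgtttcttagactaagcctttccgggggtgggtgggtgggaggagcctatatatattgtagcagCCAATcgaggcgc
Tk1: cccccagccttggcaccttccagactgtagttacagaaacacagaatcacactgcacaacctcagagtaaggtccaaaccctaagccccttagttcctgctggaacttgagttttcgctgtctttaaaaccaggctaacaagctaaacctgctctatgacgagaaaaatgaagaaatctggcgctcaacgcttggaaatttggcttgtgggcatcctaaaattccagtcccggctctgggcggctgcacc
Top2a: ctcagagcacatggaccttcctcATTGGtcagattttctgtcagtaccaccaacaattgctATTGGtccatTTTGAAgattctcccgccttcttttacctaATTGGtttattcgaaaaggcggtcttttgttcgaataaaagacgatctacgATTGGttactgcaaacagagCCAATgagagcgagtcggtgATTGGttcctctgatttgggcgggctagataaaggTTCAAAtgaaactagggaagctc
Cdk1: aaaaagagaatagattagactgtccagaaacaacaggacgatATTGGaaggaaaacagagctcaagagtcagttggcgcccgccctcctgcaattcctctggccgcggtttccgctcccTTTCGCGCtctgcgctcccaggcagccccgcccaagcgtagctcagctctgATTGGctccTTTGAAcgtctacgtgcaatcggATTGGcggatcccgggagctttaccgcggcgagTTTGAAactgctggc

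The 5 stretches differed in how many of these letters they held. The Cdk6 and Tk1 stretches held 0 matches to any of the 3 motifs, and the E2f2 stretch held 1 CCAAT box, 13 to 9 bases before the start. The Top2a stretch held 6 CCAAT boxes and 2 CHR motifs, and the Cdk1 stretch held 3 CCAAT boxes, 2 CHR motifs and 1 E2F motif. RefSeq promoters of this kind were matched for 31 of the 35 genes. CCAAT stood in 21 of these 31 promoters (67.7%), against 34.5% of the 27025 promoters of all genes. The E2F letters stood in 5 of 31 (16.1%), those of Mcm5, Mcm6, Mcm7, Cdk1 and Cdk2, against 1.91% of all promoters. The CHR letters stood in 6 of 31 (19.4%), Top2a and Cdk1 among them, against 16.3% of all. E2F and CHR letters were thus missing from most of the 31 promoters, uncalled genes included. The motifs do not overlap in the stretches printed above. A match is a description of letters, not a bound site, and the absence of a match says only that these letters are not in this window.

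The sort checks followed the labels. Foxp3, the transcription factor that defines Treg, averaged 11.05 in NOD Treg and 5.91 in NOD Tconv, and 11.00 in B6.H2g7 Treg and 5.68 in B6.H2g7 Tconv (log2 intensity). Il2ra, which encodes CD25, differed alike, at 10.81 in NOD Treg against 5.74 in NOD Tconv, and 11.02 in B6.H2g7 Treg against 5.69 in B6.H2g7 Tconv. Cd3e, a chain of the T cell receptor complex, lay between 12.12 and 12.48 as group means and was not called. Cd4, the coreceptor used in the sort, averaged 9.80 in NOD Treg and 10.09 in NOD Tconv, and 9.61 in B6.H2g7 Treg and 10.11 in B6.H2g7 Tconv. It was called as lower in Treg, with a change of -0.40 averaged over strains (adjusted p = 0.0262, limma), with no overlap of the groups in either strain. Restaining for Foxp3 gave 89% to 96% positive cells per Treg pool in the labels, with the lowest in NOD Treg replicate 1. The median intensity of an array ranged from 83.9 to 88.6, and arrays of the same group correlated at 0.983 to 0.9962. The depth of an array is its number of probes, so the number of arrays per group limits the precision.

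Averaged over both strains, 3 of the 35 genes were higher in Treg than in Tconv (limma, Benjamini-Hochberg adjusted p under 0.05 over all 45037 probe sets) and 0 were lower. Of all 18193 genes, 4.46% were called as higher and 3.03% as lower in this comparison. The 3 genes were Cdk6, E2f2 and Tk1, which act at the entry to the cycle, in the E2F step and in the supply of thymidine nucleotides. None of the 13 genes of mitosis and of the proliferation markers was called. The median change of the 35 genes was under 0.01 in size on the log2 scale, beside -0.01 for all genes. Within NOD, 1 gene was higher in Treg (Cdk6) and 0 were lower, where 2.86% of all genes were called as higher and 1.52% as lower. Within B6.H2g7, 2 were higher (Cdk6 and Tk1) and 0 were lower, where 2.84% of all genes were called as higher and 1.7% as lower. In bulk RNA, fewer cells that express a gene and less of its RNA per cell cannot be told apart.

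**Figure D1:**
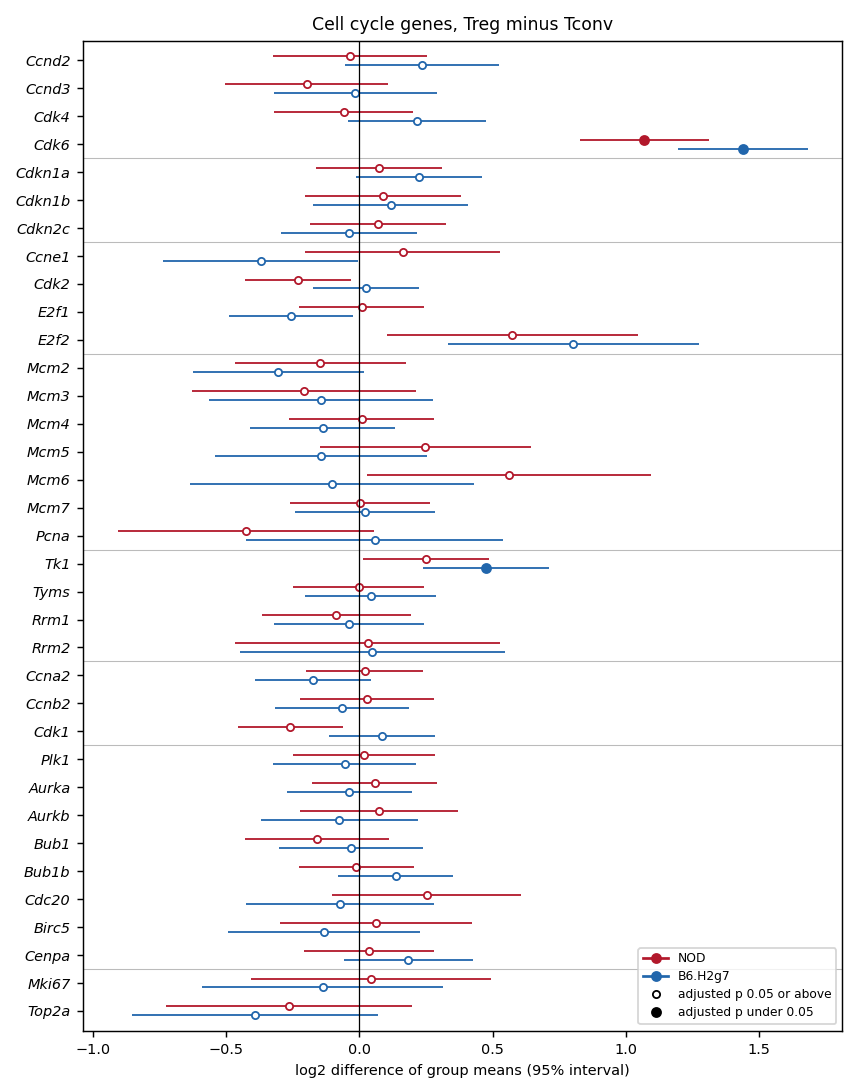
Log2 difference of group means, Treg minus Tconv, for each of the 35 genes in NOD and in B6.H2g7 (points, with bars for the 95% interval of the limma fit, n = 3 arrays per group). Filled points are called at an adjusted p under 0.05: Cdk6 in both strains and Tk1 in B6.H2g7.

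Cdk6 had the largest change. Its log2 intensity was 9.45, 9.15 and 9.50 on the NOD Treg arrays, against 8.31, 8.17 and 8.41 on the NOD Tconv arrays. In B6.H2g7 it was 9.37, 9.36 and 9.25 in Treg, against 7.96, 7.96 and 7.74 in Tconv. Every Treg array lay above every Tconv array, in each strain and across strains. The difference was 1.07 ± 0.11 in NOD (SE, adjusted p = 9.22e-05, limma), a 2.10-fold higher intensity. In B6.H2g7 it was 1.44 ± 0.11 (SE, adjusted p = 6.13e-06, limma), or 2.71-fold. Averaged over strains it was 1.25 ± 0.08 (SE, adjusted p = 4.59e-07, limma).

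The other genes of the same step were not called in this comparison. Cdk4, the other kinase bound by D cyclins, averaged 9.63 ± 0.21 in NOD Treg and 9.69 ± 0.06 in NOD Tconv, and 9.80 ± 0.14 in B6.H2g7 Treg and 9.58 ± 0.13 in B6.H2g7 Tconv (SD, n = 3 each). Its averaged change was 0.08, with a 95% interval of -0.10 to 0.26. Ccnd2, the D cyclin induced by cytokines and antigen in lymphocytes, had 12.26, 12.54 and 12.53 in NOD Treg, against 12.33, 12.48 and 12.63 in NOD Tconv. Its B6.H2g7 arrays showed 12.56, 12.59 and 12.97 in Treg, against 12.64, 12.39 and 12.39 in Tconv. The groups overlapped in both strains, and the averaged change of 0.10 had an interval of -0.11 to 0.30. These values are of the brightest of 7 Ccnd2 probe sets. On every further one the B6.H2g7 mean was higher in Treg than in Tconv, though none was called between Treg and Tconv. On 1455956_x_at it was 10.79 against 10.32 in B6.H2g7, with no overlap, and 10.25 in both groups of NOD. On 1416123_at it was 7.92 against 7.15 in B6.H2g7, and 6.90 against 7.27 in NOD. Ccnd3, the D cyclin most used by developing and mature lymphocytes, changed by -0.11 with an interval of -0.32 to 0.11. It differed between the strains instead, as described further on. The 3 inhibitors of cyclin-dependent kinases were not called in any of the 6 comparisons. Of all genes, 0.11% to 4.46% were called, by comparison and direction, so 3 genes can hold 0 calls. Cdkn1a, the target of p53, changed by 0.15 on average (adjusted p = 0.448, limma), Cdkn1b, which holds resting T cells out of S phase, by 0.10, and Cdkn2c, a specific inhibitor of Cdk4 and Cdk6, by 0.02.

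E2f2, an E2F family member that restrains the cycle in T cells, was higher in Treg over both strains. It had 10.25, 9.65 and 9.88 in NOD Treg, against 9.73, 9.21 and 9.12 in NOD Tconv. In B6.H2g7 it had 9.21, 8.99 and 8.61 in Treg, against 8.42, 8.18 and 7.81 in Tconv. The NOD groups overlapped by 1 array each, and those of B6.H2g7 did not overlap. The averaged change was 0.69 ± 0.15 (SE, adjusted p = 0.0163, limma), a 1.61-fold higher intensity in Treg. Within a strain it missed the threshold, at 0.57 in NOD (adjusted p = 0.295, limma) and 0.80 in B6.H2g7 (adjusted p = 0.0753, limma). In B6.H2g7 it was called with the replicate block, quantile normalization, array weights or the actin covariate, and without the arrays of replicate 1 or NOD Tconv replicate 1. In NOD the replicate numbers were taken as pairing the arrays, by a correlation rule given under the processing of the data. The labels do not say what a number marks. With the number as a block, 2 genes were called as higher in NOD Treg, Cdk6 and E2f2. The share of all genes called with the block was not computed. Without NOD Tconv replicate 2 the averaged E2f2 change was 0.65 with an adjusted p of 0.0502 (limma).

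E2f2 followed the replicate number as well as the cell type. Replicate 1 was its highest array in each of the 4 groups, and the same held for Mki67 and Top2a, 3 of the 35 genes (8.57%) against 6.1% of all genes. The difference between the 3′ and the 5′ actin control probe sets, a measure of how shortened the RNA is, was lowest in replicate 1 in NOD Treg (3.29), NOD Tconv (2.97) and B6.H2g7 Treg (2.66), and was lowest in replicate 2 in B6.H2g7 Tconv (3.67). As group means this difference was 4.15 in NOD Treg and 3.67 in NOD Tconv, and 3.83 in B6.H2g7 Treg and 3.98 in B6.H2g7 Tconv. With it as a covariate, the averaged E2f2 change was 0.75 (adjusted p = 2.71e-05, limma), and without the 4 arrays numbered replicate 1 it was 0.71 (adjusted p = 0.00485, limma).

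**Figure D2:**
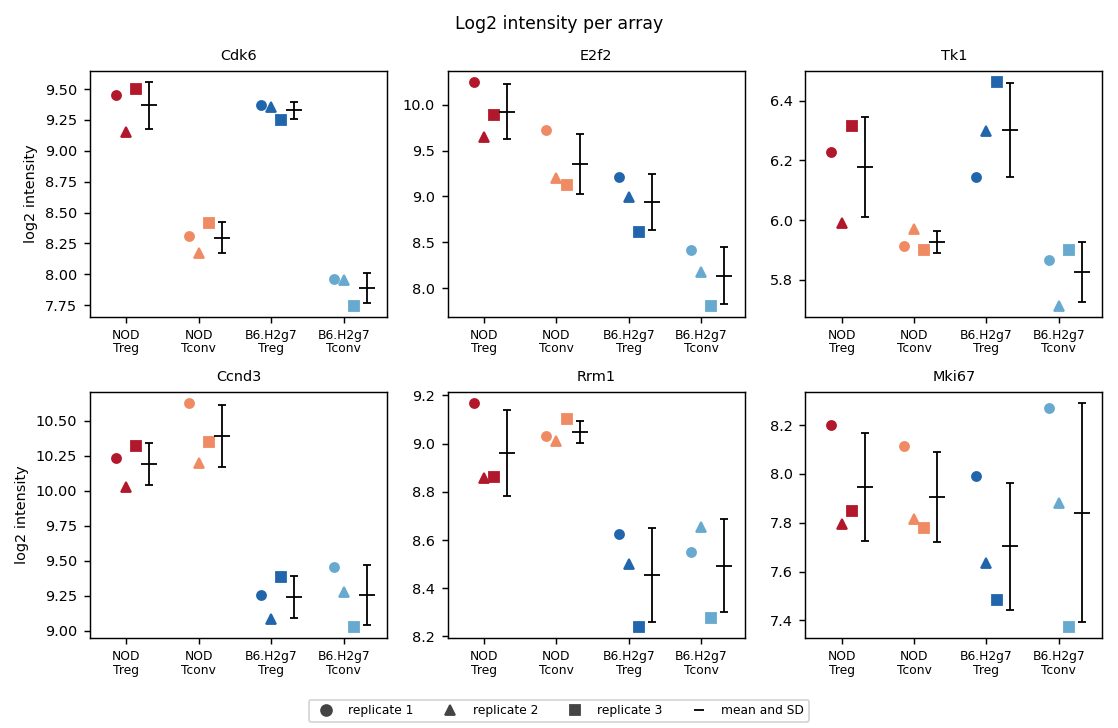
Log2 intensity on each array for the 5 genes called in any comparison and for Mki67, with mean and SD beside the points of each group (n = 3). Cdk6 and Tk1 separate Treg from Tconv, and Ccnd3 and Rrm1 separate NOD from B6.H2g7. E2f2 differs in both ways as means, with an overlap of NOD Treg and NOD Tconv, and the groups of Mki67 overlap.

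E2f1, an activating E2F, Ccne1, the cyclin that drives entry into S phase, and Cdk2, its kinase, were not called. Their averaged changes were -0.12, -0.10 and -0.10 on the log2 scale. Before adjustment, p was under 0.05 for Cdk2 in NOD (-0.23, adjusted p = 0.331, limma), and for E2f1 (-0.26, adjusted p = 0.354) and Ccne1 (-0.37, adjusted p = 0.421) in B6.H2g7.

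The MCM helicase unwinds DNA at the fork, and Pcna is the clamp that tethers the polymerases. On the brightest probe sets, these 7 genes showed high intensities in all 4 groups, and 0 were called in any comparison. Of all genes, 4.46% were called as higher and 3.03% as lower in Treg averaged over strains. The level depended on the probe set. Over all arrays, Mcm5 averaged 9.87 on its brightest and 6.72 on 1415945_at, and Mcm6 9.17 on its brightest and 7.49 on 1416251_at. Mcm4 had 11.40, 11.74 and 11.64 in NOD Treg, against 11.35, 11.73 and 11.66 in NOD Tconv. The B6.H2g7 arrays of Mcm4 showed 11.36, 11.51 and 11.46 in Treg, against 11.56, 11.74 and 11.44 in Tconv. The groups overlapped in both strains, and the averaged change was -0.06 with an interval of -0.26 to 0.13. On its other probe set, 1416214_at, Mcm4 had 9.76, 9.59 and 9.71 in NOD Treg, against 10.03, 9.95 and 10.01 in NOD Tconv. Those NOD groups did not overlap, though the difference was not called. In B6.H2g7 it averaged 9.86 in Treg and 9.81 in Tconv on that probe set. Pcna had 11.66, 10.86 and 11.08 in NOD Treg, against 11.85, 11.53 and 11.50 in NOD Tconv, and here the groups overlapped through NOD Treg replicate 1. In B6.H2g7 Pcna had 11.56, 11.17 and 10.94 in Treg, against 11.31, 11.39 and 10.80 in Tconv. The Pcna change was -0.43 in NOD (adjusted p = 0.571, limma) and 0.06 in B6.H2g7.

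Mcm2 had 9.83, 10.13 and 10.19 in NOD Treg, against 10.06, 10.15 and 10.37 in NOD Tconv. In B6.H2g7 it had 9.85, 10.08 and 10.44 in Treg, against 10.45, 10.34 and 10.49 in Tconv. The groups overlapped in both strains, and the averaged change of -0.23 had an adjusted p of 0.36 (limma). With the actin difference as a covariate it was -0.27 with an adjusted p of 0.0181 (limma), the 1 alternative under which Mcm2 was called as lower in Treg. Mcm3, Mcm5, Mcm6 and Mcm7 changed by -0.18, 0.05, 0.23 and 0.01 on average. Mcm6 had the widest spread, with 8.87 ± 0.61 in NOD Tconv (SD, n = 3). The NOD change depended on the probe set. Mcm6 averaged 9.43 in NOD Treg on its brightest, but 7.39 in NOD Treg against 7.47 in NOD Tconv on 1416251_at. Mcm7 averaged 10.07 in both NOD groups on its brightest, but 6.58 in NOD Treg against 7.11 in NOD Tconv on 1416030_a_at.

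Of the 4 genes that supply deoxynucleotides, Tk1, the thymidine kinase of S phase, was higher in Treg. It had 6.23, 5.99 and 6.32 in NOD Treg, against 5.91, 5.97 and 5.90 in NOD Tconv. In B6.H2g7 it had 6.15, 6.30 and 6.46 in Treg, against 5.87, 5.71 and 5.90 in Tconv. The groups did not overlap in either strain, although in NOD the lowest Treg array lay close to the highest Tconv array. The averaged change was 0.36 ± 0.08 (SE, adjusted p = 0.012, limma), a 1.29-fold higher intensity. It was 0.47 in B6.H2g7 (adjusted p = 0.031, limma) and 0.25 in NOD (adjusted p = 0.413, limma). The call in B6.H2g7 held in 5 of the 12 fits that left out 1 array, with adjusted p-values of 0.0215 to 0.146, and the averaged call held in 12 of 12. The B6.H2g7 call was lost without replicate 2 or 3 of NOD Tconv or of B6.H2g7 Treg, and without any of the 3 B6.H2g7 Tconv arrays. Tyms, the thymidylate synthase, averaged between 5.23 and 5.29 in the 4 groups and was dim in B6.H2g7 Treg and Tconv, where dim means a group mean under 5.28, the 25th percentile of all probe set means. Rrm1 and Rrm2, the subunits of ribonucleotide reductase, changed by -0.06 and 0.04 between Treg and Tconv.

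The genes of G2 and mitosis showed small differences between Treg and Tconv, and none was called. Ccna2, the cyclin of S phase and G2, averaged 7.28 ± 0.14 in NOD Treg and 7.26 ± 0.14 in NOD Tconv, and 7.24 ± 0.04 in B6.H2g7 Treg and 7.41 ± 0.08 in B6.H2g7 Tconv (SD, n = 3 each). Ccnb2, a mitotic cyclin, spanned 0.08 over the 4 group means and Aurka, the Aurora kinase of the spindle poles, also 0.08. Cdk1, the mitotic kinase, had 6.81, 6.63 and 6.79 in NOD Treg, against 7.04, 6.88 and 7.08 in NOD Tconv, and averaged 6.82 ± 0.08 in B6.H2g7 Treg and 6.73 ± 0.06 in B6.H2g7 Tconv (SD, n = 3 each). Its NOD groups did not overlap, and the NOD change of -0.26 had an adjusted p of 0.235 (limma). The averaged changes of the 8 genes for mitotic kinases, checkpoint and centromere ranged from -0.10 (Bub1, a checkpoint kinase, dim in all 4 groups) to 0.11 (Cenpa, the centromeric histone). Plk1, Aurkb, Birc5, Bub1b and Cdc20, which act in the spindle, the passenger complex, the checkpoint and the release from it, lay between these.

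Mki67, the antigen used to count cycling cells, had 8.20, 7.79 and 7.85 in NOD Treg, against 8.12, 7.82 and 7.78 in NOD Tconv. In the B6.H2g7 groups it had 7.99, 7.63 and 7.49 in Treg, against 8.27, 7.88 and 7.37 in Tconv. The groups overlapped in both strains, and the averaged change was -0.05 with an interval of -0.37 to 0.27. Top2a, the topoisomerase that untangles replicated chromosomes, had 7.90, 7.46 and 7.45 in NOD Treg, against 7.99, 7.84 and 7.78 in NOD Tconv. The B6.H2g7 arrays of Top2a showed 7.97, 7.45 and 7.32 in Treg, against 8.24, 8.19 and 7.49 in Tconv. Its groups overlapped too, and the averaged change of -0.33 had an adjusted p of 0.352 (limma), the 1 uncalled gene whose p was under 0.05 before adjustment. Top2a was called as lower in Treg with array weights and with the replicate number as a block.

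A p that misses the threshold does not show that 2 groups are alike, so the intervals were read as well. For 30 of the 32 genes not called in the averaged comparison, the 95% interval lay within a 1.5-fold difference in either direction. The same held for 27 of 34 genes in NOD and 27 of 33 in B6.H2g7. Over the 4 groups, 29 of the 35 genes kept their group means within 0.5 of each other, and 3 spanned more than 1: E2f2 (1.79), Cdk6 (1.48) and Ccnd3 (1.15).

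The Treg to Tconv change was then compared between the strains. The difference of the changes (NOD minus B6.H2g7) was called for 0 of the 35 genes (limma), where 0.11% of all genes were called, and 3 had p under 0.05 before adjustment. These were Cdk6 (-0.37), Ccne1 (0.53) and Cdk1 (-0.34), each with an adjusted p of 0.962 (limma). For 17 of the 35 genes the interval of this difference lay within 1.5-fold, so larger differences were not bounded for the rest.

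A few of these genes differed between the strains. In Treg, 2 of the 35 were higher in NOD than in B6.H2g7 (Ccnd3 and E2f2) and 0 were lower, where 1.84% of all genes were called as higher and 1.49% as lower. In Tconv, 3 were higher in NOD (Ccnd3, E2f2 and Rrm1) and 0 were lower, where 1.6% of all genes were called as higher and 1.45% as lower. The replicate numbers were taken as pairing NOD Treg with B6.H2g7 Treg by the same rule. With the number as a block, 4 genes were called as higher in NOD Treg, with Rrm1 and Cdc20 added, and the share of all genes was not computed. Cdc20, the activator of the anaphase promoting complex, averaged 7.85 ± 0.34 in NOD Treg and 7.25 ± 0.20 in B6.H2g7 Treg (SD, n = 3 each), with an adjusted p of 0.078 (limma) without the block. Its other probe sets lay closer together. They averaged 7.46 in NOD Treg and 7.33 in B6.H2g7 Treg on 1416664_at, and 6.19 and 6.07 on 1439394_x_at.

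**Figure D3:**
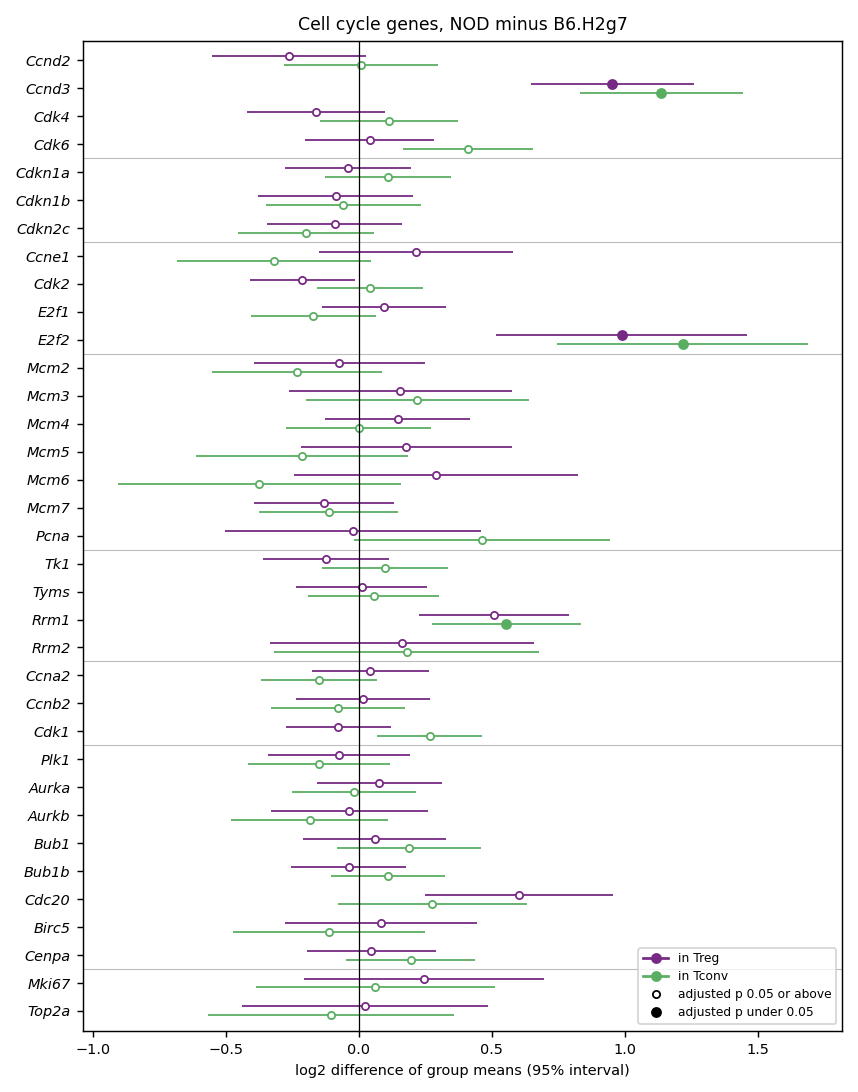
Log2 difference of group means, NOD minus B6.H2g7, for each of the 35 genes in Treg and in Tconv (points, with bars for the 95% interval of the limma fit, n = 3 arrays per group). Filled points are called at an adjusted p under 0.05: Ccnd3 and E2f2 in both cell types and Rrm1 in Tconv, all higher in NOD.

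Ccnd3 had 10.23, 10.03 and 10.32 in NOD Treg, against 9.26, 9.08 and 9.38 in B6.H2g7 Treg. In Tconv it had 10.63, 10.20 and 10.35 in NOD, against 9.46, 9.28 and 9.03 in B6.H2g7. Every NOD array lay above every B6.H2g7 array. The difference was 0.95 ± 0.14 in Treg (SE, adjusted p = 0.00157, limma) and 1.14 ± 0.14 in Tconv (SE, adjusted p = 0.000395, limma), which is 1.94-fold and 2.20-fold. E2f2, whose values are given above, was higher in NOD by 0.99 ± 0.22 in Treg (SE, adjusted p = 0.0238, limma) and by 1.22 ± 0.22 in Tconv (SE, adjusted p = 0.00634, limma). The Treg call of E2f2 held in 8 of the 12 fits that left out 1 array. It was lost without NOD Treg replicate 1 (adjusted p = 0.101, limma) or replicate 3 (0.0791), and without B6.H2g7 Treg replicate 2 (0.0645) or replicate 3 (0.11).

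Rrm1, the large subunit of ribonucleotide reductase, had 9.17, 8.86 and 8.86 in NOD Treg, against 8.62, 8.50 and 8.24 in B6.H2g7 Treg. In Tconv it had 9.03, 9.01 and 9.10 in NOD, against 8.55, 8.65 and 8.28 in B6.H2g7. The strains did not overlap in either cell type. The difference was 0.56 ± 0.13 in Tconv (SE, adjusted p = 0.0367, limma) and 0.51 ± 0.13 in Treg (SE, adjusted p = 0.0558, limma). The Tconv call held in 5 of the 12 fits that left out 1 array, with adjusted p-values of 0.0252 to 0.146. It was lost without any of the 3 NOD Tconv arrays, NOD Treg replicate 3, B6.H2g7 Treg replicate 2 or B6.H2g7 Tconv replicate 1 or 3.

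Other probe sets of the same genes gave another picture of the strains. Of the 35 genes, 27 had further probe sets, 51 in all. For Ccnd3, the second probe set by intensity (1444323_at) was also higher in NOD, by 0.93 in Treg (adjusted p = 0.0383, limma) and 0.72 in Tconv (adjusted p = 0.148). The Ccnd3 probe set 1438805_at went the opposite way. It averaged 5.36 in NOD Treg against 7.27 in B6.H2g7 Treg, and 5.45 in NOD Tconv against 7.29 in B6.H2g7 Tconv, a difference of -1.91 in Treg (adjusted p = 0.000157, limma) and -1.85 in Tconv (adjusted p = 0.000226). For E2f2, 1455790_at differed by -0.26 in Treg (adjusted p = 0.811, limma) and -0.50 in Tconv (adjusted p = 0.323), against the higher values in NOD on the brighter probe set. Rrm1 1440073_at differed by -0.50 in Tconv (adjusted p = 0.451, limma). The direction of the strain difference of these 3 genes therefore depended on the probe set.

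Mcm3 and Cdk6 differed between strains on probe sets other than the brightest. Mcm3 1420028_s_at averaged 8.74 in NOD Treg against 7.97 in B6.H2g7 Treg, and 8.89 in NOD Tconv against 8.16 in B6.H2g7 Tconv, both called as higher in NOD. Mcm3 1449705_x_at, the brightest, differed by 0.16 and 0.22 and was not called. Cdk6 1455287_at averaged 7.27 in NOD Treg against 9.25 in B6.H2g7 Treg, and 6.86 in NOD Tconv against 7.95 in B6.H2g7 Tconv, both called as lower in NOD. Over the 51 further probe sets, 2 were called as higher and 2 as lower in NOD in each cell type. Of all 45037 probe sets, 1.6% were called as higher and 1.66% as lower in NOD Treg, and 1.31% as higher and 1.65% as lower in NOD Tconv. Probe sequences were not used here, and the cause of these disagreements was not tested.

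Between Treg and Tconv, the further probe sets of E2f2 and Cdk6 were higher in Treg or near 0 on average. Cdk6 1455287_at was higher in Treg by 0.41 in NOD (adjusted p = 0.522, limma), by 1.29 in B6.H2g7 (adjusted p = 0.00204) and by 0.85 on average (adjusted p = 0.00206), while 1460291_at changed by 0.04 on average. E2f2 1455790_at was higher in Treg by 0.82 in NOD (adjusted p = 0.0352, limma), by 0.58 in B6.H2g7 (adjusted p = 0.177) and by 0.70 on average (adjusted p = 0.00627). Tk1 had 1 probe set. Of the 35 brightest probe sets, 9 have names ending in _x_at, which marks probes that can match other transcripts, among them those of Cdk4, Ccne1, Cdc20 and of Mcm3 to Mcm6.

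**Figure D4:**
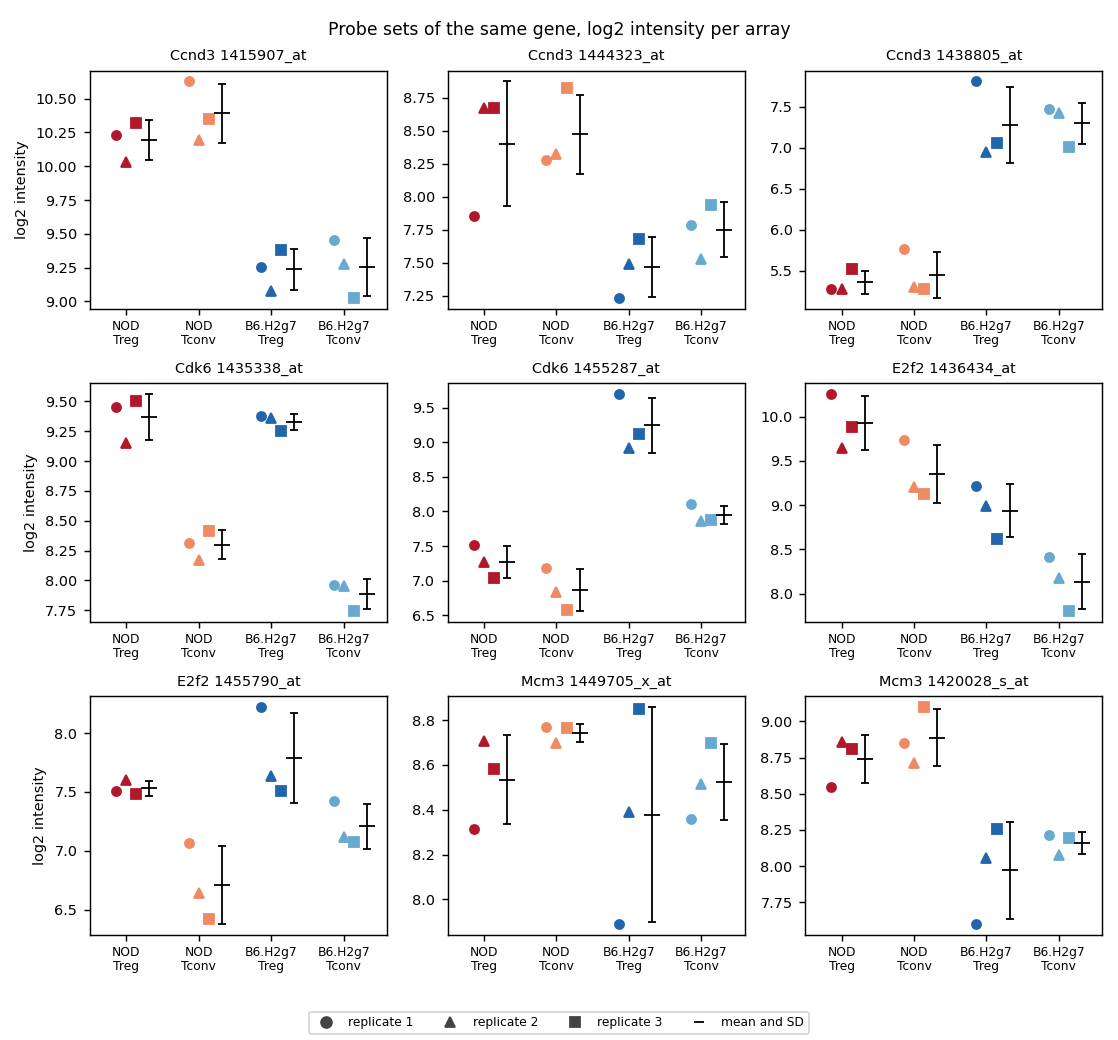
Log2 intensity on each array for probe sets of Ccnd3, Cdk6, E2f2 and Mcm3, with mean and SD beside the points of each group (n = 3). Ccnd3 1415907_at and 1438805_at differ between the strains in opposite directions, and both probe sets of E2f2 are higher in Treg within each strain as means.

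Further genes of the cycle, on 3 lists outside the 35, were read in the same comparison of Treg with Tconv averaged over strains. Each was read on its brightest probe set alone. The list for origins and forks had 0 of 38 genes higher in Treg and 6 lower, with a median change of -0.03, where 4.46% of all genes were higher and 3.03% lower. Pole2, a subunit of DNA polymerase epsilon, averaged 8.49 in NOD Treg against 10.03 in NOD Tconv, and 8.25 in B6.H2g7 Treg against 9.60 in B6.H2g7 Tconv, with no overlap. Its averaged change of -1.45 ± 0.10 (SE, adjusted p = 7.81e-07, limma) was the largest of these lists. Dbf4 and Cdc7, the regulatory and catalytic subunits of the kinase that fires origins, changed by -0.61 (adjusted p = 0.00536, limma) and -0.55 (adjusted p = 0.0226). Rpa1, which coats single-stranded DNA, changed by -0.38 (adjusted p = 0.00784, limma). The other 2 lower genes were Prim1, of the primase, and Cdt1, which loads the helicase, at -0.62 and -0.45.

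The mitosis list had 2 of 40 genes higher in Treg and 4 lower, with a median change of -0.03, beside the same 4.46% and 3.03% of all genes. Stmn1, which destabilises microtubules, averaged 11.00 in NOD Treg against 11.85 in NOD Tconv, and 10.88 in B6.H2g7 Treg against 12.28 in B6.H2g7 Tconv. Its averaged change was -1.13 (adjusted p = 6.88e-06, limma). Kif23, a kinesin of cytokinesis, changed by -0.91 (adjusted p = 0.00052, limma), and Spc25 of the kinetochore and the kinesin Kif22 by -0.61 and -0.38. Melk, a kinase found in cycling cells, went the other way. It averaged 7.20 in NOD Treg against 6.01 in NOD Tconv, and 6.53 in B6.H2g7 Treg against 5.49 in B6.H2g7 Tconv, a change of 1.11 (adjusted p = 2.08e-05, limma). Smc4, a condensin subunit, changed by 0.57 (adjusted p = 0.00092, limma).

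The list of G1 control had 2 of 30 genes higher in Treg and 1 lower, with a median change of -0.02, beside 4.46% and 3.03% of all genes. Rb1, the retinoblastoma protein, changed by 0.65 (adjusted p = 0.000175, limma) and E2f3, an activating E2F, by 0.69 (adjusted p = 0.000245). Cdc25a, the phosphatase that activates Cdk2, changed by -0.51 (adjusted p = 0.00555, limma). Fbxo5, the inhibitor of the anaphase promoting complex, changed by -0.49 with an adjusted p of 0.0767 (limma). In the difference between strains of the Treg to Tconv change, 0 genes of the 3 lists were called.

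**Figure D5:**
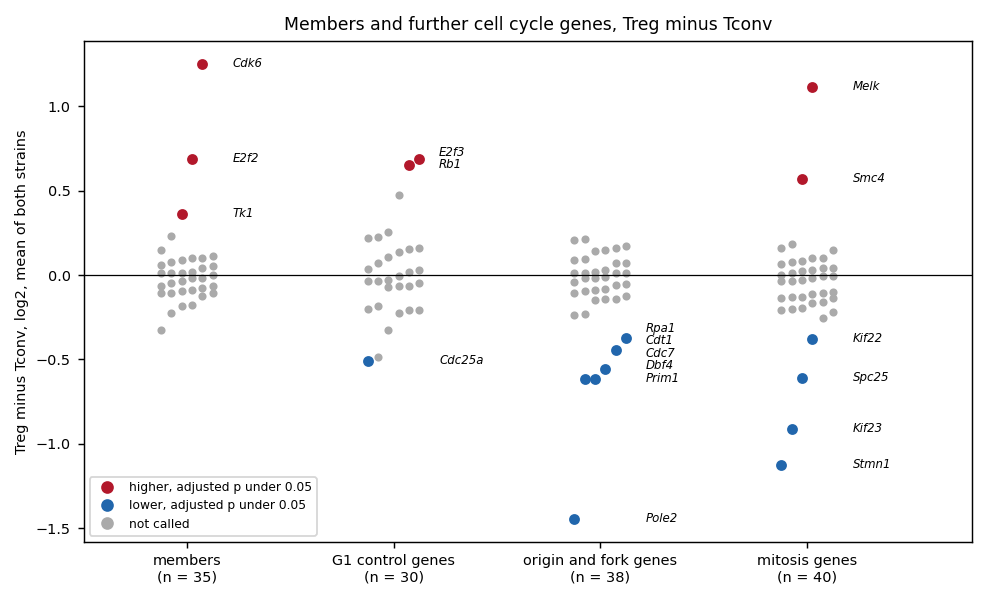
Log2 change, Treg minus Tconv averaged over both strains, for the 35 genes and for 3 further lists of cell cycle genes (1 point per gene). Red points are called as higher and blue points as lower in Treg at an adjusted p under 0.05; the 35 genes have 3 red and 0 blue points, and the genes of origins and forks 0 red and 6 blue.

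Between strains, the list for origins and forks had 2 of 38 genes lower in NOD in each cell type, the mitosis list 1 of 40 and the list of G1 control 0 of 30. Of all genes, 1.49% were lower in NOD Treg and 1.45% in NOD Tconv. Pttg1, the securin, averaged 10.97 in NOD Treg against 12.63 in B6.H2g7 Treg, and 10.63 in NOD Tconv against 12.77 in B6.H2g7 Tconv. Gmnn, geminin, which blocks relicensing of origins, averaged 6.27 in NOD Treg against 7.36 in B6.H2g7 Treg, and 6.10 in NOD Tconv against 7.50 in B6.H2g7 Tconv. Dbf4 differed by -0.84 in Treg and -1.14 in Tconv. Gins1 (0.57) and Gins4 (0.48), of the replicative helicase, were higher in NOD Tconv, and Melk (0.67) and Rb1 (0.56) were higher in NOD Treg, where 1.6% and 1.84% of all genes were higher. Each of these genes was read on its brightest probe set alone. Pttg1 has 3 probe sets, and Dbf4, Gins1 and Rb1 have 2 each. Whether their other probe sets differ between the strains in the same direction was not tested.

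Markers of other cell types were read beside these results. The gate without B220, CD11b and CD8a is directed against B cells, myeloid cells and CD8 T cells. Of 4 B cell markers 1, Cd79b, was higher in Treg (0.79 averaged over strains), and of 4 plasmablast markers 1, Xbp1 (0.99). Of all genes, 4.46% were called as higher and 3.03% as lower in this comparison. Xbp1, which T cells express too, was the 1 plasmablast marker called. Averaged over strains, Sdc1, Prdm1 and Jchain changed by 0.10, -0.13 and -0.02. The summed intensity of the plasmablast markers, Xbp1 included, was 1700 to 1909 in NOD Treg and 1017 to 1111 in NOD Tconv, and 1485 to 1748 in B6.H2g7 Treg and 1034 to 1238 in B6.H2g7 Tconv. That of the B cell markers overlapped, at 575 to 642 in NOD Treg and 556 to 669 in NOD Tconv, and 534 to 653 in B6.H2g7 Treg and 481 to 633 in B6.H2g7 Tconv. Linear intensities were summed, so Cd22, the brightest B cell marker, weighed most in this sum. Its overlap therefore does not show that the content of B cells was alike. Cd79b averaged 7.16 in NOD Treg against 6.41 in NOD Tconv, and 7.02 in B6.H2g7 Treg against 6.18 in B6.H2g7 Tconv, with no overlap. Of the uncalled markers on these lists, Ms4a1 averaged 6.68 to 6.75, Cd79a 5.58 to 5.76 and Cd22 8.25 to 8.45 over the 4 groups. Sdc1 averaged 7.27 to 7.45 and Jchain 6.06 to 6.25. Of 3 erythroid, 6 myeloid and 2 CD8 T cell markers, 0 were called, and Itgam and S100a8 were dim in all 4 groups. At these shares of all genes, lists this short can hold 0 calls, so the counts do not show that such cells were absent. In the comparisons of strains, 0 genes of these marker lists were called. The shares of all genes were 1.84% higher and 1.49% lower in NOD Treg, and 1.6% higher and 1.45% lower in NOD Tconv. Before adjustment, both CD8 markers had p under 0.05 in Treg, Cd8a at -0.33 (adjusted p = 0.268, limma) and Cd8b1 at -0.26 (adjusted p = 0.401), with all NOD Treg arrays below all B6.H2g7 Treg arrays. Cd79b had p under 0.05 before adjustment in Tconv, at 0.23 (adjusted p = 0.47, limma). The part of other cells in the results above was not tested.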

How the data were processed

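RNA was extracted with Trizol, amplified in 2 rounds and labelled with biotin, per the labels' protocols. The authors deposited an intensity for each probe set on each array after RMA normalization, per the series design and the submitters' processing notes. The RMA version is not given in the sources used here. These values are linear (5.78 to 27207), and here the deposited intensity was turned into log2 as it stood, without a pseudocount. Control probe sets (64) were left out.

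The group means of all 12 arrays were fitted by lmFit and eBayes of limma 3.58.1 (R 4.3.3), with Benjamini-Hochberg adjustment over 45037 probe sets in each of 6 comparisons. The study's own analysis took ratios of mean intensities, per the series text. With 3 arrays on each side an exact permutation test has a smallest p of 0.1, and none was run. The scripts were tested on simulated data.

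All 35 genes may be named. Arrays are listed for called genes, the 4 uncalled genes of highest mean, and Mki67, Top2a and Cdk1 (NOD), which were added after their values were seen. Of each further list the text names the 4 genes of smallest p in the averaged comparison, and others after their values were seen. The members and lists were chosen with earlier results of these data known. The E2F letters replaced a looser pattern tried first on the same promoters. Promoters came from RefSeq (GRCm38.p6), read with Python 3.11.15.

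Replicate numbers of the labels were checked by correlating same-numbered deviations from group means. Every such pair exceeded 0.1 between NOD Treg and NOD Tconv (0.31 to 0.56) and between NOD Treg and B6.H2g7 Treg (0.30 to 0.67). By this rule the numbers were taken as pairing these arrays. Arrays of unlike number correlated at up to 0.41 over all groups, so some of them exceeded 0.1 too. NOD Treg replicate 2 correlated with B6.H2g7 Treg replicate 3 at 0.31 and with NOD Tconv replicate 3 at 0.22. Same-numbered arrays of NOD Tconv and B6.H2g7 Treg, groups not compared here, correlated at 0.28 to 0.55. The labels do not say what a number marks, and the source of the correlations was not tested. Pairs with B6.H2g7 Tconv reached -0.21. Alternatives were the replicate block, quantile normalization, an offset of 32, a filter on dim probe sets, array weights, the actin difference as a covariate, other probe sets, only the groups compared, and leaving out arrays.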

Additional observations from a re-analysis of the deposited data

How the results depend on the processing

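Of the 35 genes, the number called was 1 in NOD Treg against Tconv, 2 in B6.H2g7, 3 averaged over strains, 0 in the difference between strains, 2 between strains in Treg and 3 in Tconv. With the replicate number as a block it was 2 in NOD and 4 between strains in Treg; in the other 4 comparisons it stayed within 1.5 times. With the actin difference as a covariate it was likewise 2 in NOD and 4 between strains in Treg. With array weights it was 5 in B6.H2g7 and 5 averaged, each with 4 higher (Cdk6, Cdkn1a, E2f2 and Tk1) and Top2a lower, and 4 between strains in Treg. With only the groups compared it was 1 in B6.H2g7. With the mean of all probe sets of a gene it was 1 between strains in Treg (Cdk6, lower in NOD) and 0 in Tconv. Leaving out each array in turn gave 1 in NOD, 1 to 3 in B6.H2g7, 2 to 3 averaged, 0 for the difference between strains, 1 to 3 between strains in Treg and 2 to 4 in Tconv. The share of all genes called was not computed under these alternatives. A count that moves is therefore not shown to be particular to these genes.

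The strain difference of E2f2 turned to -0.26 in Treg and -0.50 in Tconv on its second probe set, that of Rrm1 in Tconv to -0.50, and that of Ccnd3 in Treg to -0.0096 over the mean of its probe sets, where Ccnd3 in Tconv was 0.0027. The cause was not tested. Cdk6 was called as higher in Treg on average under all 21 alternatives, with adjusted p-values up to 0.00206 (limma), and Tk1 under all 19 that applied to it. In NOD alone Cdk6 was called under 21 of 22, all but its second probe set. Ccnd3 kept its calls in both cell types in 12 of 12 fits that left out 1 array. Dim probe sets, such as those of Tyms and Bub1, limit what small changes can be seen, and the arrays hold no detection calls. The design has 3 arrays per group, and a call near the threshold can rest on 1 array.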
